A study of Rattus norvegicus with 10 samples.

Results

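Cell-cycle inhibitors and G1 cyclins are the genes that set whether a cell leaves the G1 phase and starts to copy its DNA. They were followed here as 10 genes chosen by name: the inhibitors Cdkn1a, Cdkn1b, Cdkn2c and Cdkn2d, the D-type cyclins Ccnd1, Ccnd2 and Ccnd3, the E-type cyclin Ccne1, and the kinases Cdk4 and Cdk6. Of the 10, 9 had a row among the 17168 genes of the tables and all 9 were tested, with between 28 and 1192 counts per library. The expression of Cdkn2d was not analysed here, and only its promoter was read. RNA came from the left hippocampus of 10 rats, all male and of the TgF344-AD line, at the age of 11 months, with 1 library for each rat. The 5 untreated rats ate plain rodent chow, and the 5 RG2833 rats ate chow with 750 mg of the drug per kg from the age of 5 months, for 6 months. RG2833 inhibits the histone deacetylases HDAC1 and HDAC3, and TgF344-AD rats carry human transgenes with mutations of familial Alzheimer's disease. All 10 rats carried the transgenes; no wild-type or female rat was analysed here. In 1 sentence on timing the design text names ibudilast, another drug; the title and each sample's treatment label name RG2833.

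In G1, D-type cyclins bind Cdk4 or Cdk6, and the complexes phosphorylate the retinoblastoma protein, which frees E2F factors to turn on cyclin E and the genes of DNA replication. Proteins of the Cip/Kip family (p21 from Cdkn1a, p27 from Cdkn1b) bind cyclin-kinase complexes, and those of the INK4 family (p18 from Cdkn2c, p19 from Cdkn2d) bind Cdk4 and Cdk6. In cultured dividing cells Cdkn1a is the classic gene induced by histone deacetylase inhibitors, while most cells of an adult hippocampus are neurons and glia that no longer divide.

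Promoter sequences are shown for 3 members that bracket the results: Cdkn1a, the most variable, Cdk4, the steadiest, and Ccne1, which ran against Ccnd1. They are the 250 bases before the start in RefSeq's GRCr8 table, 5′ to 3′, matched by symbol. The counts were made on another build, rn6. Capitals mark matches, on either strand, to the GC box bound by Sp1 (GGGCGG), the E-box bound by Myc and Max (CACGTG) and the p53 response element (both half-sites adjacent, at most 1 mismatch and none in the core C and G bases).
Cdkn1a, chr20:7150682-7150931, plus strand: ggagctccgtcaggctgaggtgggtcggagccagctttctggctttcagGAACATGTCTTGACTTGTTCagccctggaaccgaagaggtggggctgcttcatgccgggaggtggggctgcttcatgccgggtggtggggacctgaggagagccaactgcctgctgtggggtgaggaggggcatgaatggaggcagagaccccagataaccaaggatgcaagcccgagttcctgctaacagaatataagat
Cdk4, chr7:64771203-64771452, plus strand: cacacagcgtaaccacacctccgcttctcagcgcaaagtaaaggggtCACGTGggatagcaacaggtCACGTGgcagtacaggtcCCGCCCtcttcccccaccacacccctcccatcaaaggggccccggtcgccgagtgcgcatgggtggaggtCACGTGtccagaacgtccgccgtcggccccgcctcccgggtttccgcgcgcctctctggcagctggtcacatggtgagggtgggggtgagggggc
Ccne1, chr1:99927910-99928159, minus strand: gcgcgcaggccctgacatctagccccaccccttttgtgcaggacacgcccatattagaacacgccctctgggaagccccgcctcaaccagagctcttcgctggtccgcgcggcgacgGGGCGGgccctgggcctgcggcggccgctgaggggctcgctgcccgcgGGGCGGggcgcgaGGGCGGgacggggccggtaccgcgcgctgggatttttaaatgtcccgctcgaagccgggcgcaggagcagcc
The Cdkn1a window held 1 p53 element, 201 to 182 bases before the start, and no GC box. Such an element was found in 15 of the 33469 promoters of the table (0.0448%). Of the 7 members with a promoter in the table, all but Cdkn1a held at least 1 GC box, against 30.5% of all promoters. Cdk4 held 3 E-boxes (5.59% of all promoters hold one) and 1 GC box, and Ccne1 held 3 GC boxes. The E2F site TTTCCCGC or TTTGGCGC was in none of the 7 and in 1.21% of all promoters. The Cdkn1a window had 6 CpG dinucleotides, near the median of 5 over all promoters, while the other 6 had 20 to 31. These matches describe letters in a window before a single listed start of each gene, and show no binding. Sequence before any other start of Cdkn1a or of another member was not read.

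Libraries held between 15118203 and 18533520 expected counts, of which ribosomal RNA took 4.07% to 11.4%. Markers of hippocampal neurons were present in every library: all 10 listed genes were tested, led by Snap25, whose mean was 2104 ± 421 CPM in the untreated group and 1908 ± 287 CPM under RG2833 (mean ± SD, n = 5 each). CPM is the count per 1000000 of a library size corrected by TMM, the trimmed mean of M-values. In 2 libraries, untreated replicate 2 and RG2833 replicate 1, the 13 choroid plexus markers summed to 8314 and 9729 CPM, against 14.7 to 300.0 CPM in the other 8. The sum of 8 meningeal fibroblast genes was also high in both, at 1439 and 1032 CPM against 81.4 to 170 CPM. In the RG2833 library Igf2 (652 CPM) and Igfbp2 (288 CPM) made up most of it, and the collagens Col1a1, Col1a2 and Col3a1 were at most 14.8, 21.4 and 12.8 CPM in any RG2833 library, against up to 112, 162 and 69.4 CPM in the untreated group. Of the 13 choroid plexus markers, Folr1 and Sostdc1 were at 0 in 1 library each. The change of each of the 9 genes is given with and without both.

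RG2833 rats did not differ detectably from untreated rats in any of the 9 genes. At an adjusted p under 0.05 in edgeR's quasi-likelihood test 0 of 9 passed, as did 0% of the 12161 genes tested (DESeq2 called 7 genes, none of them a member). With an unadjusted p under 0.05 as the limit the count was also 0 of 9, where 5.66% of all tested genes met it, and DESeq2 and limma-voom gave 0 of 9 as well. This count became 1, Ccnd3, without untreated replicate 2 (509 of all 12193 tested genes met the limit) and without both choroid plexus-rich libraries (596 of 12152). The log2 fold change was above 0 for 4 members and below 0 for 5, with a median of -0.0073, beside -0.011 over all genes tested. The groups overlapped in all 9, while 1.00% of all tested genes had groups that did not. The smallest unadjusted p was 0.208, for Ccne1.

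**Figure D1:**
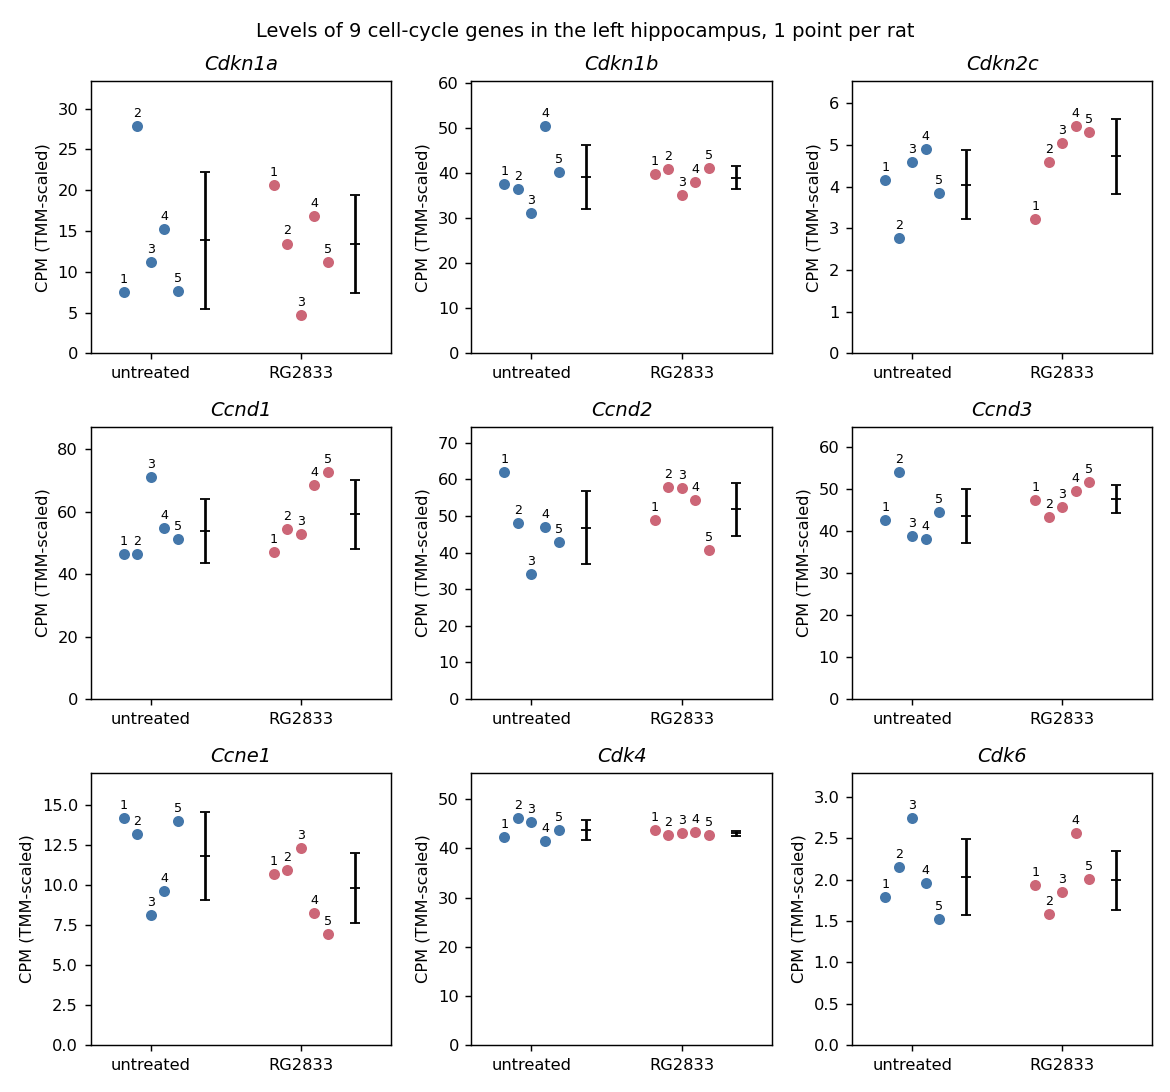
Level of each of the 9 genes in each rat, in CPM on the TMM-scaled library size with the axis from 0. Points are rats numbered by replicate, and the bar beside each group is the mean ± SD of 5 rats. Cdkn1a runs from 4.67 to 27.8 CPM, Cdk4 only from 41.4 to 46.2 CPM, and the groups overlap in every panel.

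Cdkn1a, the gene that deacetylase inhibitors induce in culture, was not measurably higher after 6 months of RG2833. In untreated rats 1 to 5 it stood at 7.50, 27.8, 11.2, 15.2 and 7.65 CPM, and in RG2833 rats 1 to 5 at 20.7, 13.5, 4.67, 16.8 and 11.2 CPM. The highest library was an untreated one and the lowest an RG2833 one, and the groups overlapped. The means were 13.9 ± 8.41 and 13.4 ± 6.03 CPM (n = 5 each). This is -0.06 on the log2 scale (SE 0.43; edgeR adjusted p = 0.996; exact permutation p = 0.976). Its 95% interval reached from 0.497-fold to 1.86-fold, so a rise of less than 1.86-fold is not excluded by these 10 rats.

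The width of that interval came with the spread between rats. The biological coefficient of variation of Cdkn1a was 47.2%, larger than that of 96.5% of the genes tested, while counting noise alone would give about 6.58%. Both highest values, 27.8 and 20.7 CPM, were in the 2 choroid plexus-rich libraries. Without both libraries the log2 fold change was 0.15 (SE 0.37; edgeR adjusted p = 0.986), a change of sign within the error. Leaving out single libraries moved it from -0.27 (without RG2833 replicate 1) to 0.37 (without untreated replicate 2). The part of choroid plexus or meningeal RNA in the level of Cdkn1a was not tested. In bulk tissue, more cells of a type and more RNA per cell cannot be told apart.

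Cdkn1b encodes p27, which holds cells in G1 and is abundant in cells that have left the cycle. It stood at 37.6, 36.4, 31.2, 50.3 and 40.2 CPM in untreated rats 1 to 5 and at 39.8, 40.8, 35.0, 38.0 and 41.2 CPM in RG2833 rats. All 5 RG2833 values lay inside the untreated range, whose ends were untreated replicates 3 and 4. The means were 39.2 ± 7.07 and 38.9 ± 2.51 CPM (n = 5 each; on the log2 scale -0.0073, SE 0.11; edgeR adjusted p = 0.996; exact permutation p = 0.960), with a 95% interval of 0.837-fold to 1.18-fold. Its sign changed with the test and with the library left out, from -0.08 without untreated replicate 3 to 0.10 without untreated replicate 4.

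Cdkn2c encodes p18, an INK4 inhibitor of Cdk4 and Cdk6. It stood at 4.15, 2.77, 4.60, 4.90 and 3.85 CPM in untreated rats and at 3.23, 4.60, 5.05, 5.45 and 5.33 CPM in RG2833 rats. Of the RG2833 values, 3 lay above every untreated one, and the lowest value of each group was in its choroid plexus-rich library. The means were 4.05 ± 0.82 and 4.73 ± 0.90 CPM (n = 5 each; on the log2 scale 0.22, SE 0.19; edgeR adjusted p = 0.911; exact permutation p = 0.286), and the 95% interval was 0.876-fold to 1.56-fold. Without RG2833 replicate 1 the exact permutation p was 0.0476, with a difference of 0.35 in log2 CPM, while edgeR gave 0.33 on the log2 scale with an unadjusted p of 0.079 and an adjusted p of 0.679. At the other end, without untreated replicate 2, edgeR gave 0.11 and the difference in log2 CPM was 0.092. Without both choroid plexus-rich libraries the log2 fold change was 0.22 (edgeR adjusted p = 0.954).

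The D-type cyclins, the partners of Cdk4 and Cdk6, all had somewhat higher means in RG2833 rats, and none passed. Ccnd1 stood at 46.3, 46.3, 71.2, 54.8 and 51.1 CPM in untreated rats and at 47.2, 54.5, 52.7, 68.5 and 72.6 CPM in RG2833 rats. Untreated replicate 3 and RG2833 replicates 4 and 5 were high, and the other 7 libraries lay between 46.3 and 54.8 CPM. RG2833 over untreated gave a log2 fold change of 0.13 (SE 0.15; edgeR adjusted p = 0.936; exact permutation p = 0.405), with a 95% interval of 0.871-fold to 1.38-fold. It was 0.05 without RG2833 replicate 5 and 0.25 without untreated replicate 3.

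Ccnd2, the D-type cyclin used by neural precursors of the adult dentate gyrus, stood at 62.0, 48.2, 34.2, 47.0 and 42.9 CPM in untreated rats. In RG2833 rats it was at 48.9, 57.8, 57.8, 54.4 and 40.7 CPM. The lowest library of each group, untreated replicate 3 and RG2833 replicate 5, was among the 3 highest for Ccnd1. For Ccnd2 the log2 fold change was 0.15 (SE 0.15; edgeR adjusted p = 0.921; exact permutation p = 0.357), with a 95% interval of 0.881-fold to 1.39-fold. It ranged from 0.06 without untreated replicate 3 to 0.27 without untreated replicate 1.

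Ccnd3, the third D-type cyclin, stood at 42.8, 54.0, 38.8, 38.1 and 44.6 CPM in untreated rats and at 47.5, 43.4, 45.7, 49.7 and 51.8 CPM in RG2833 rats. The highest value was in the choroid plexus-rich untreated library, and 4 of the 5 RG2833 values lay above the untreated mean of 43.6 CPM. For Ccnd3 the log2 fold change was 0.12 (SE 0.10; edgeR adjusted p = 0.904; exact permutation p = 0.222), with a 95% interval of 0.939-fold to 1.27-fold. Without untreated replicate 2 it was 0.21, with an unadjusted p of 0.0181 and an adjusted p of 1 in edgeR (exact permutation p = 0.0317). It was 0.08 without untreated replicate 4 (edgeR unadjusted p = 0.441). Without both choroid plexus-rich libraries it was 0.21 (edgeR unadjusted p = 0.0343, adjusted p = 0.946).

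Ccne1, the E-type cyclin that binds Cdk2 at entry to S phase, had a lower mean in RG2833 rats and did not pass the test. It stood at 14.2, 13.2, 8.12, 9.61 and 14.0 CPM in untreated rats and at 10.7, 11.0, 12.3, 8.27 and 6.92 CPM in RG2833 rats. The 3 lowest libraries, RG2833 replicates 5 and 4 and untreated replicate 3, were the 3 highest for Ccnd1. The means were 11.8 ± 2.77 and 9.84 ± 2.20 CPM (n = 5 each; on the log2 scale -0.26, SE 0.20; edgeR adjusted p = 0.899; exact permutation p = 0.270), with a 95% interval of 0.616-fold to 1.13-fold. It was -0.16 without RG2833 replicate 5 and -0.37 without untreated replicate 3.

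Cdk4, a kinase partner of the D-type cyclins, was the steadiest member. It stood at 42.2, 46.2, 45.4, 41.4 and 43.8 CPM in untreated rats and at 43.8, 42.6, 43.1, 43.3 and 42.7 CPM in RG2833 rats, all 5 inside the untreated range. Its coefficient of variation over the 10 libraries was 3.29%, no more than the 3.70% that counting noise gives at its mean count, and its fitted biological variation was larger than that of only 1.43% of the genes tested. RG2833 differed from untreated by a log2 fold change of -0.02 (SE 0.05; edgeR adjusted p = 0.974; exact permutation p = 0.492). Its 95% interval, 0.913-fold to 1.06-fold, was the narrowest among the 9 genes.

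Cdk6, the other kinase partner, had the fewest counts of the 9, from 28 to 46 per library. It stood at 1.79, 2.15, 2.75, 1.96 and 1.52 CPM in untreated rats and at 1.94, 1.59, 1.85, 2.57 and 2.01 CPM in RG2833 rats. Untreated replicate 3 and RG2833 replicate 4 were high. For Cdk6 the log2 fold change was -0.03 (SE 0.20; edgeR adjusted p = 0.996; exact permutation p = 0.905), with a 95% interval of 0.723-fold to 1.33-fold. Its sign changed when untreated replicate 3 (0.10) or RG2833 replicate 2 (0.04) was left out, and also in limma-voom (0.06). For Ccnd1 and Cdk6 the expected counts were not whole, so some of their reads were shared with other genes by RSEM and their values are uncertain to that extent. The other 7 members had whole counts in all 10 libraries.

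The choroid plexus-rich libraries held the highest Cdk4 and the lowest Ccnd1 value of each group. Without both, the log2 fold change was -0.05 for Cdkn1b, 0.145 for Ccnd1, 0.17 for Ccnd2, -0.26 for Ccne1, -0.02 for Cdk4 and -0.0056 for Cdk6. These 6 kept their sign, with edgeR adjusted p from 0.967 to 0.999.

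**Figure D2:**
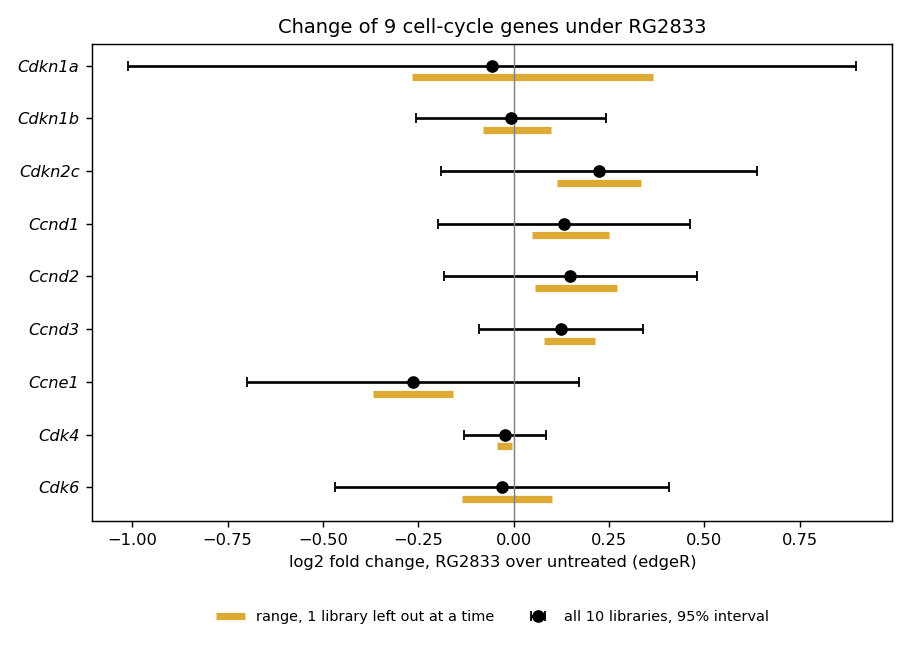
Log2 fold change of the 9 genes, RG2833 over untreated, from edgeR. Black points and bars are the estimate and 95% interval from all 10 libraries, and yellow bars run over the 10 estimates that each leave out 1 library. Every black interval crosses 0, the widest being Cdkn1a (-1.01 to 0.90) and the narrowest Cdk4 (-0.13 to 0.08).

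Across rats, several members varied together with cell type markers. Correlations here are Pearson r over log2 CPM of the 10 libraries, with Spearman rho beside them, and they are descriptions without a test, because libraries share tissue makeup and scaling. Of the 36 pairs of members, 3 had an r of at least 0.7 in size. Ccnd1 and Ccne1 ran against each other (r = -0.90, rho = -0.88, and r = -0.80 without the 2 libraries farthest from the median Ccnd1). Cdkn2c ran with Ccnd1 (r = 0.72, rho = 0.78, and 0.65 without the 2 farthest in Cdkn2c). Cdkn1b ran against Cdk4 (r = -0.70, rho = -0.59), which shrank to -0.32 without the 2 libraries farthest in Cdkn1b and so rests on those.

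Against the marker lists, 99 pairs of a member and a list were computed. Ccnd1 was higher where markers of oligodendrocyte precursors (r = 0.94, rho = 0.90), microglia (r = 0.92, rho = 0.93) and astrocytes (r = 0.91, rho = 0.92) were higher. It was lower where markers of dentate granule cells were higher (r = -0.88, rho = -0.89). Ccne1 had the mirror pattern, at r = -0.92 with oligodendrocyte precursors and 0.83 with dentate granule cells. With the 2 libraries farthest in the list left out, these 6 values stayed between 0.81 and 0.92 in size. Endothelial markers were at r = 0.86 with Ccnd1 and -0.86 with Ccne1, and at 0.65 and -0.68 without the 2 farthest. Markers of hippocampal neurons were at r = -0.79 with Ccnd1 and 0.83 with Ccne1, and at -0.55 and 0.73 without the 2 farthest. Untreated replicate 3 and RG2833 replicates 4 and 5, highest for Ccnd1 and lowest for Ccne1, also had the most ribosomal RNA. Their shares were 11.4%, 9.365% and 8.92%, followed by 8.705% in RG2833 replicate 3, which was not among them. The part of ribosomal RNA content in these patterns was not tested. Cdkn1b ran with mature oligodendrocytes (r = 0.85, rho = 0.88, and 0.87 without the 2 farthest). Cdk6 ran against hippocampal neurons (r = -0.86, rho = -0.87, and -0.85 without the 2 farthest).

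Cdkn1a ran with meningeal fibroblasts (r = 0.77, rho = 0.77) and choroid plexus (r = 0.75, rho = 0.66). Both values were smaller without the 2 libraries farthest in the list, at 0.55 and 0.45. It also ran with progenitors and newborn neurons (r = 0.70, rho = 0.65, and 0.66 without the 2 farthest). Here the 2 farthest were RG2833 replicate 1 and untreated replicate 4. The other choroid plexus-rich library, untreated replicate 2, was also high in this list and stayed in. Cdkn2c ran against choroid plexus (r = -0.83), a value that rests on such libraries, as it was -0.09 without them. Cdkn2c also ran with astrocytes (r = 0.82, rho = 0.88, and 0.75 without the 2 farthest).

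The summed levels of these marker lists overlapped between the groups. Over their tested genes, the 8 listed precursor markers ran from 499 to 693 CPM in untreated and 505 to 774 CPM in RG2833 rats, and the 10 microglial markers from 595 to 1096 CPM and 637 to 889 CPM. Of the 10 astrocyte markers, 9 were tested and all 9 had a log2 fold change above 0, from 0.14 to 0.60 with a median of 0.33; of all tested genes 46.5% were above 0 and 5.66% had an unadjusted p under 0.05. Of these, 2 had an unadjusted p under 0.05, Gjb6 and Gja1, and 0 passed (edgeR adjusted p = 0.841). Their sum ran from 6832 to 10588 CPM in untreated and 7874 to 11631 CPM in RG2833 rats. All listed precursor and microglial genes, and the 9 tested astrocyte genes, had counts in every library. Of 10 listed dentate granule markers 7 were tested, Tdo2 was at 0 in all 10 libraries, and all 7 had a log2 fold change below 0, with a median of -0.13 and sums of 238 to 491 CPM in untreated and 271 to 429.6 CPM in RG2833 rats. Plk5 had the largest difference among them, with means of 19.2 ± 7.03 and 10.2 ± 3.68 CPM (n = 5 each; log2 fold change -0.92, SE 0.30; edgeR unadjusted p = 0.0107, adjusted p = 0.841; exact permutation p = 0.0317). Of 9 tested endothelial markers, 8 had a log2 fold change above 0, with a median of 0.27 and sums of 371 to 706 CPM and 440.1 to 752 CPM. Among 8 markers of pericytes and smooth muscle, 4 had a log2 fold change above 0 and 4 below, from -0.37 to 0.39 with a median of -0.0089. Only Tagln, the lowest of them, had an unadjusted p under 0.05, at 0.0194 (log2 fold change -0.37, SE 0.14; edgeR adjusted p = 0.841). The part of these cell types in the levels of Ccnd1, Cdkn2c and Ccne1 was not tested.

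**Figure D3:**
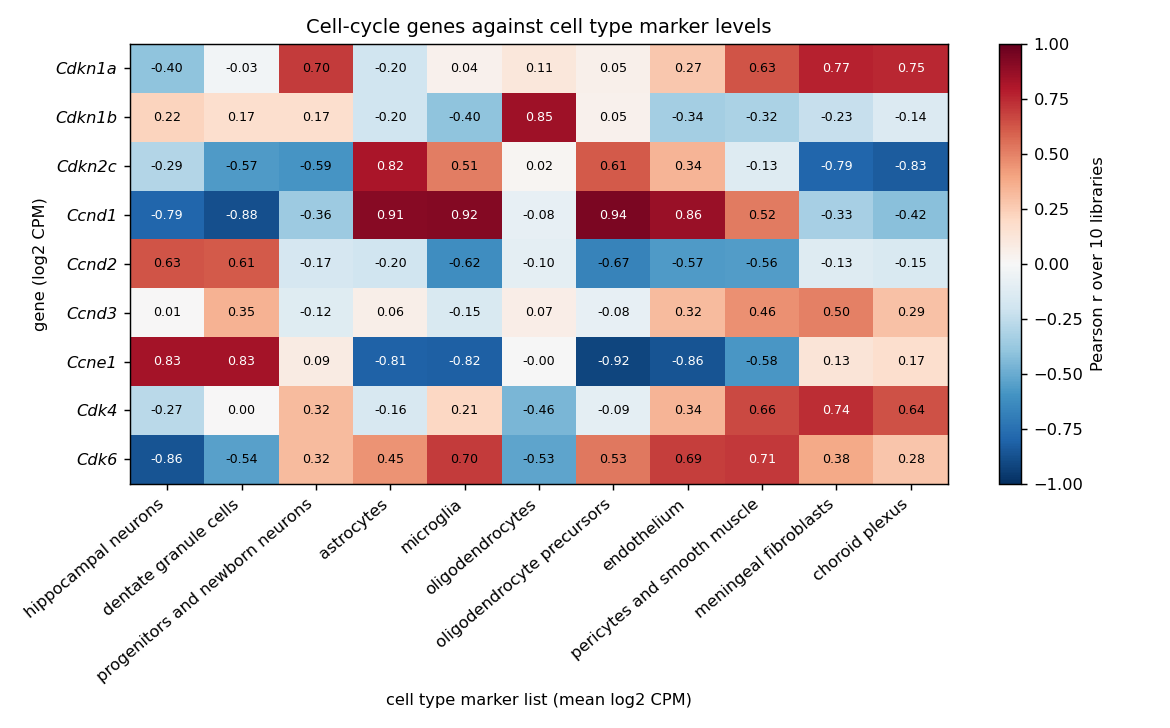
Pearson r over 10 libraries between the log2 CPM of each of the 9 genes (rows) and the mean log2 CPM of each of 11 cell type marker lists (columns). Red is positive and blue negative. Ccnd1 and Ccne1 have opposite colours for oligodendrocyte precursors (0.94 and -0.92), and Cdkn1b is strongly coloured only for oligodendrocytes (0.85).

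**Figure D4:**
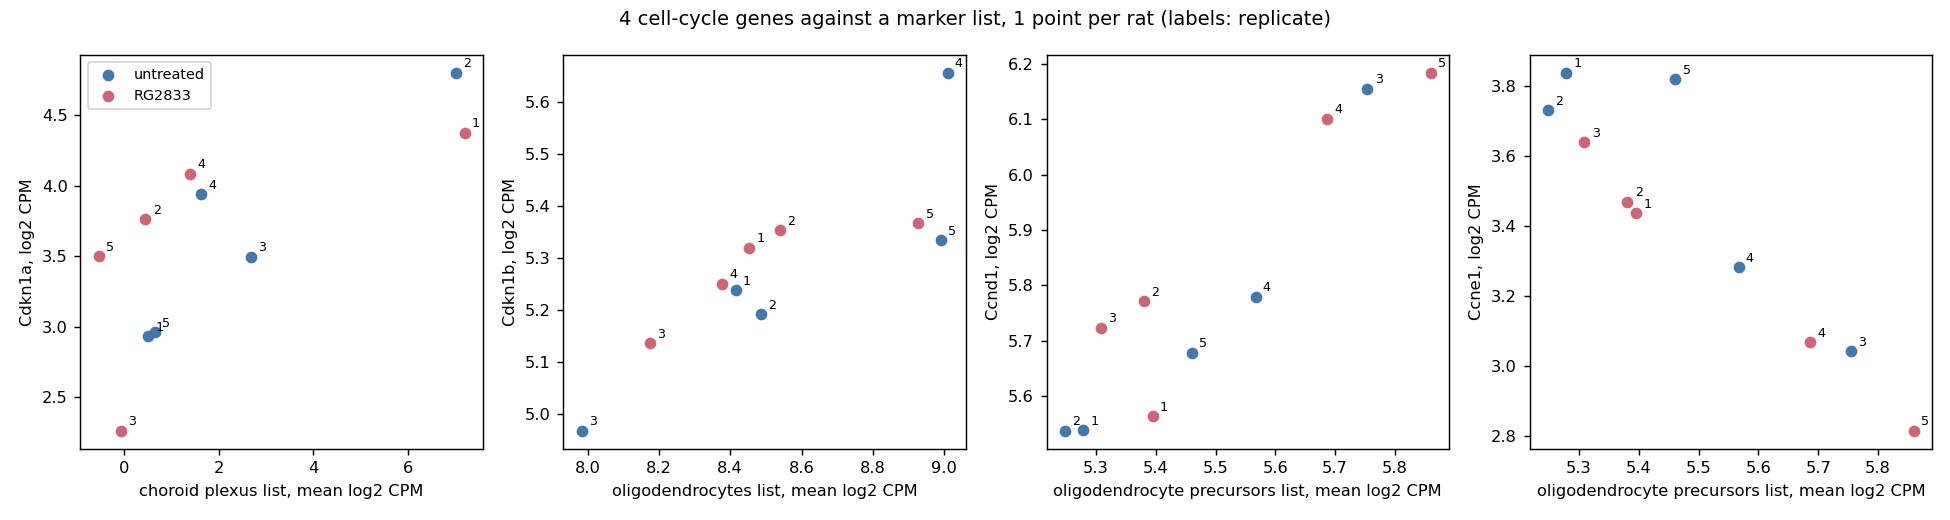
Log2 CPM of 4 genes against the mean log2 CPM of a marker list, 1 point per rat, coloured by group and numbered by replicate. For Cdkn1a, untreated replicate 2 and RG2833 replicate 1 stand alone at the right; for Cdkn1b, Ccnd1 and Ccne1, rats of both groups lie along 1 band.

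The genes whose pattern over the 10 libraries was most like that of Cdkn1a, among 11713 genes with a symbol, were Prickle3 (r = 0.946), Snx9 (0.945), Zfyve16 (0.944), C1H6orf35 (0.936) and Trim15 (0.915). For Ccnd1 they were Mertk (0.989) and Rpl31 (0.987), and for Ccne1 Spata2L (0.982) and Ubald1 (0.980). For Cdkn1b they were Eya4 (0.986) and Rap1a (0.956), for Cdkn2c Hpd (0.948) and Ppm1k (0.946), and for Ccnd2 Zdhhc15 (0.947) and Nedd9 (0.934). Ccnd3 was most like Dusp16 (0.904) and Rhoj (0.888), Cdk4 like Ppp1r1a (0.966) and Map2k3 (0.949), and Cdk6 like Fhl3 (0.954) and Zfp36l1 (0.943). Each was picked as the highest r among that many genes, so these values are a description.

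The rest of the pathway was read from 7 lists with 119 genes, of which 108 had a row and 101 were tested. An unadjusted p under 0.05 was reached by 4 of them (3.96%), of which 1 had a higher and 3 a lower mean in RG2833. Over all tested genes the share was 5.66%, made up of 2.94% higher and 2.71% lower. None passed at an adjusted p under 0.05 in edgeR. By the exact permutation test, unadjusted, 7 of the 101 (6.93%) were under 0.05, beside 6.11% of all tested genes. Counts in the next paragraphs are edgeR's. The log2 fold change was above 0 for 32 and below 0 for 69 of the 101, with a median of -0.07, beside 46.5% of all tested genes above 0. The count of 4 became 9 without untreated replicate 3, where 1732 of all 12196 tested genes met the limit. It became 2 without untreated replicate 1 (637 of 12218) or without RG2833 replicate 5 (424 of 12218). It became 6 without both choroid plexus-rich libraries (596 of 12152) or without RG2833 replicate 2 (648 of 12216).

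Among other inhibitors, 5 were listed, 3 were tested, and 0 had an unadjusted p under 0.05 in edgeR. Cdkn2b, which encodes the INK4 inhibitor p15, was just above that limit, with means of 2.51 ± 0.300 CPM untreated and 3.11 ± 0.325 CPM under RG2833 (n = 5 each; log2 fold change 0.31, SE 0.14; edgeR unadjusted p = 0.0506, adjusted p = 0.841; exact permutation p = 0.0238). Cdkn2a, the INK4 and Arf locus that marks senescent cells, was left out by the filter on low counts, with 2 to 7 counts per library and 20 in all untreated against 21 in all RG2833 libraries. The other cyclins and kinases of G1 and of kinase activation, 12 tested, also had 0, with a median log2 fold change of -0.01. Of 10 tested genes of retinoblastoma and E2F proteins, 1 had an unadjusted p under 0.05. This was Rbl2, the retinoblastoma relative p130 that represses cell-cycle genes in resting cells, with means of 58.4 ± 3.92 CPM untreated and 64.1 ± 2.31 CPM under RG2833 (n = 5 each; log2 fold change 0.14, SE 0.06; edgeR unadjusted p = 0.0413, adjusted p = 0.841; exact permutation p = 0.0317). All 5 RG2833 values lay above the untreated mean, and the groups overlapped.

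Of 10 tested genes of the ubiquitin ligases that degrade G1 regulators, 1 had an unadjusted p under 0.05. Skp2, the subunit that marks p27 for destruction, had means of 4.41 ± 0.31 CPM untreated and 3.49 ± 0.70 CPM under RG2833 (n = 5 each; log2 fold change -0.33, SE 0.15; edgeR unadjusted p = 0.0453, adjusted p = 0.841; exact permutation p = 0.0317). In 4 of the 5 RG2833 rats it lay below the untreated mean. None of the 16 tested transcription factors known to act on Cdkn1a or Cdkn1b had an unadjusted p under 0.05; their log2 fold changes ran from -0.26 for Mycn to 0.27 for Foxo4. The exact permutation p of Zbtb17 was 0.0397 (log2 fold change -0.11; edgeR unadjusted p = 0.114).

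Of 23 tested p53 targets and regulators, the pathway to which Cdkn1a belongs, 2 had an unadjusted p under 0.05, both lower in RG2833, where 5.66% of all tested genes met that limit and 2.71% did so with a lower mean. Bbc3, which encodes the cell-death protein Puma, had means of 5.68 ± 0.45 CPM untreated and 4.39 ± 0.45 CPM under RG2833 (n = 5 each). Its groups did not overlap, at 5.19 to 6.19 and 3.67 to 4.80 CPM (log2 fold change -0.37, SE 0.11; edgeR unadjusted p = 0.0064, adjusted p = 0.841; exact permutation p = 0.00794, the smallest that 252 regroupings allow). Of all tested genes, 1.00% had groups that did not overlap. Gadd45g, a stress gene of growth arrest, had means of 9.80 ± 2.07 and 7.12 ± 0.94 CPM (n = 5 each; log2 fold change -0.46, SE 0.15; edgeR unadjusted p = 0.0129, adjusted p = 0.841; exact permutation p = 0.0397). For Zmat3 the exact permutation p was 0.0476 (log2 fold change 0.09; edgeR unadjusted p = 0.13). The median log2 fold change of the 23 genes was -0.08.

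Genes of S, G2 and M phase showed no detectable difference either. Of 30 listed, 27 were tested and 0 had an unadjusted p under 0.05; 7 log2 fold changes were above 0 and 20 below, with a median of -0.09. Ccna2, Ccnb2 and Cdk1, a pair of cyclins and their kinase, had 2 to 13 counts per library and were left out by the filter on low counts. The mitotic cyclin Ccnb1 was tested, with means of 1.82 ± 0.382 CPM untreated and 1.35 ± 0.220 CPM under RG2833 (n = 5 each; log2 fold change -0.42, SE 0.20; edgeR unadjusted p = 0.061, adjusted p = 0.841; exact permutation p = 0.0714). Aurkb, a mitotic kinase, had means of 5.16 ± 3.05 and 2.04 ± 1.79 CPM (n = 5 each; log2 fold change -1.32, SE 0.63; edgeR unadjusted p = 0.0596, adjusted p = 0.841; exact permutation p = 0.0714). In each of the 5 RG2833 rats both genes were under the mean of the untreated group, with overlap between groups. Markers of progenitors and newborn neurons, with 8 of 10 tested, split 4 and 4 in direction and had 0 at an unadjusted p under 0.05.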

How the data were processed

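For 10 libraries, 1 per rat, the authors deposited expected counts per gene from RSEM; 11.6% of the values were not whole. RSEM 1.2.15, Bowtie2 2.1.0, bcl2fastq 2.17, edgeR and the build rn6 are named in the submitters' processing notes; the annotation and strand setting are not given in the sources used here. A second deposited table holds the authors' TMM-scaled CPM signal. With a scale fitted for each library, 100% of its values above 0 were whole reads (tolerance 0.05), also in the lowest library. Over all values, those at 0 included, 99.9% of the reads so recovered equalled the rounded expected counts. The count test on these reads, added after seeing the data, called 0 genes.

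Expected counts were rounded and tested with edgeR 4.0.16 in R 4.3.3: filterByExpr (minimum count 10, total 15; 12161 genes, 70.8%), TMM, robust quasi-likelihood F test, Benjamini-Hochberg over all genes, threshold 0.05. SEs and 95% intervals come from the F statistic. A prior count of 2 was used in log2 CPM values. Values per library were compared by two-sided exact permutation over 252 regroupings (smallest p 0.00794). The chi-square per gene over the 45 library pairs was at least 7.46, so no 2 libraries were counted as 1. Alternatives used limma 3.58.1 and DESeq2 1.42.0.

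Named genes were the members, other listed genes with an unadjusted p under 0.05, up to 2 leading markers a list, and the 5 (Cdkn1a) or 2 nearest patterns by Pearson r. Cdkn2a, Cdkn2b, Zbtb17, Zmat3, Aurkb, Ccna2, Ccnb1, Ccnb2, Cdk1, Mycn, Foxo4, Col1a1, Col1a2, Col3a1, Folr1, Sostdc1 and Tdo2 were named after their values were seen. Members and lists were chosen with earlier results of these data known.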

Additional observations from a re-analysis of the deposited data

Results flagged for a closer look

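Each group of 5 values was searched for a library whose gap to its nearest neighbour exceeded 0.71 of the group's range. Over the 9 cell-cycle genes and 11 marker lists this made 40 sets, of which chance flags about 2; 3 were found and none was a cell-cycle gene. The microglia list was high in untreated replicate 3, with a gap of 0.887 of the range; Ccnd1 and Cdk6 were also highest of the untreated group in that library, at 71.2 and 2.75 CPM. The meningeal fibroblast list was high in untreated replicate 2 (0.747), the library with the highest Cdkn1a and Ccnd3. The choroid plexus list was high in RG2833 replicate 1 (0.75), the RG2833 library with the highest Cdkn1a and the lowest Cdkn2c. Their part in the levels of these genes was not tested.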

How the results depend on the processing

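The number of genes at an adjusted p under 0.05 was 0 in every setting except DESeq2, which gave 7; leave-one-out fits gave 0 to 0. An unadjusted p under 0.05 was found for 688 genes, 1266 in limma-voom with sample weights, 401 with the replicate number as a block, and 375 (without RG2833 replicate 4) to 1732 (without untreated replicate 3) in leave-one-out fits, with 424 without RG2833 replicate 5. None of the 9 members tested passed an adjusted p of 0.05 in any alternative run. No pairing of rats by replicate number was seen in expression. The 5 correlations of deviations ran from -0.49 to -0.034, and 0 of 5 untreated libraries correlated best with their own number. Such correlations cannot exclude a pairing. The block turned Cdkn1b to 0.0080 and changed no other sign.

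The sign changed for 3 genes, and the cause was not tested. Cdkn1a was 0.10 in limma-voom and 0.15 without both choroid plexus-rich libraries, and -0.27 to 0.37 over leave-one-out fits. Cdkn1b was 0.018 and 0.017 in limma on deposited CPM with pseudocounts of 0.5 and 2, and -0.080 to 0.099 over leave-one-out fits. Cdk6 was 0.062 in limma-voom and -0.14 to 0.10 over leave-one-out fits. As differences of log2 CPM, Cdkn1a ran from -0.22 to 0.31, Cdkn1b from -0.070 to 0.10 (-0.040 on unscaled library sizes) and Cdk6 from -0.11 to 0.091. Cdkn2c, Ccnd1, Ccnd2, Ccnd3, Ccne1 and Cdk4 kept their sign in every setting run. Upper-quartile scaling moved the higher share of genes at an unadjusted p under 0.05 from 52.0% to 39.3%, and leaving out untreated replicate 3 moved it to 65.1%. Depth limits Cdk6 most, with counting noise of 17.3%.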
